A study of Mus musculus with 10 samples.

Results

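Genes of glucocorticoid activation and response were examined in inguinal white adipose tissue, the subcutaneous fat depot of the groin, by RNA sequencing of control and Tcf7l2 knockout mice. They numbered 9: Hsd11b1 and H6pd, which activate the hormone, the receptors Nr3c1 and Nr3c2, and the response genes Fkbp5, Tsc22d3, Zbtb16, Sgk1 and Mt2. These are 9 of the 52636 genes counted, and all 9 were among the 15927 genes tested. They were selected on their known roles and on their knockout and control values in these same libraries, so the differences between the groups are given below as a description that supports nothing further. The rule makes no use of how the genes vary from library to library within a group.

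All mice were C57BL/6, 6 months of age, and carried floxed Tcf7l2 alleles, written TCF7L2F/F. The 5 controls are written in the growth protocol with the floxed alleles alone, with no Cre named, and are called wild type in the genotype label. The 5 knockouts carried in addition a Cre written Adp-Cre, and their genotype label reads as an adipose deletion. Cells of the depot in which that Cre is not active keep the gene. Both groups received a 65% high-fat diet, whose length is 16 weeks in the diet label, 12 weeks in the descriptions and 4 months in the treatment protocol. The time of day of tissue collection, the sex of the mice and corticosterone levels are not stated in the labels. Libraries are written control 1 to 5 and knockout 1 to 5. Each library title carries a number of its own, which the labels do not explain. If the libraries did not come from separate mice, p-values cover only the spread among these samples, which may be technical.

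Glucocorticoids are steroid hormones of the adrenal cortex, corticosterone in the mouse. Fat cells regenerate the active hormone from its inert 11-keto form with the enzyme 11-beta-hydroxysteroid dehydrogenase type 1, encoded by Hsd11b1, which works inside the endoplasmic reticulum on NADPH made there by the hexose-6-phosphate dehydrogenase H6pd. The hormone binds the glucocorticoid receptor Nr3c1 or the mineralocorticoid receptor Nr3c2, which are held ready by heat shock proteins and immunophilins, and the loaded receptor binds palindromic DNA elements beside its target genes. In fat the pathway is known for driving preadipocytes to differentiate and for altering lipid turnover.

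Total counts per library lay between 14032866 and 17782073, and 3 counts, the smallest number read here as detection, came to 0.172 CPM at its lowest and 0.205 CPM at its highest. CPM are counts divided by library size and scaled to a common total, with TMM factors that correct for composition. That floor covers counting error only, as PCR copies of 1 molecule were not marked. The deleted gene Tcf7l2 stood at 10.7 ± 0.909 CPM in controls and 5.83 ± 0.311 CPM in knockouts (mean ± SD, n = 5 each), with no overlap of the ranges (2-sided exact permutation p = 0.00794, the smallest that 252 splits can give). The tissue label was checked against 10 adipocyte markers, which summed to between 27380 and 34080 CPM in the control libraries and to between 28906 and 37740 CPM in the knockout libraries. Single markers moved in both directions, with 1 called higher, 3 lower and 6 not passing. Of 15927 tested genes 2053 were called different at an adjusted p below 0.05 by edgeR's quasi-likelihood test (12.9%), 930 higher (5.84%) and 1123 lower (7.05%). In the same edgeR test 4930 of the 15927 had an unadjusted p below 0.05, and later counts of unadjusted p stand against that number. DESeq2 called 2668 genes and limma-voom 3605. Transcripts of intronic or unconfirmed loci set the libraries apart. Their mean log2 CPM over 786 genes, called here the intronic-type score, ran from 0.38 in control 5 to 1.27 in control 2 among the controls, and from 0.056 to 0.46 among the knockouts. Adding that score as a covariate left 49 genes called, so it is given beside the results it moves with. Sample numbers run through the controls before the knockouts, so an effect of library order cannot be told apart from genotype. In bulk tissue fewer cells of a type and less RNA per cell cannot be told apart.

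Of the 9 genes, 2 were called lower in the knockout (Hsd11b1 and Nr3c2), 0 were called higher and 7 did not pass. The share of all tested genes called lower was 7.05%. The ranges of the groups were separate for 1 of the 9, Hsd11b1, and for 8.99% of all tested genes (4.45% with the knockout lower). All 9 log2 fold changes were negative in the edgeR fit, with a median of -0.17 against 0.00018 over all tested genes, but with limma-voom those of Fkbp5 (0.072), Tsc22d3 (0.023) and Sgk1 (0.036) were positive. Nothing is read from these counts, since the genes were listed with this comparison known.

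**Figure D1:**
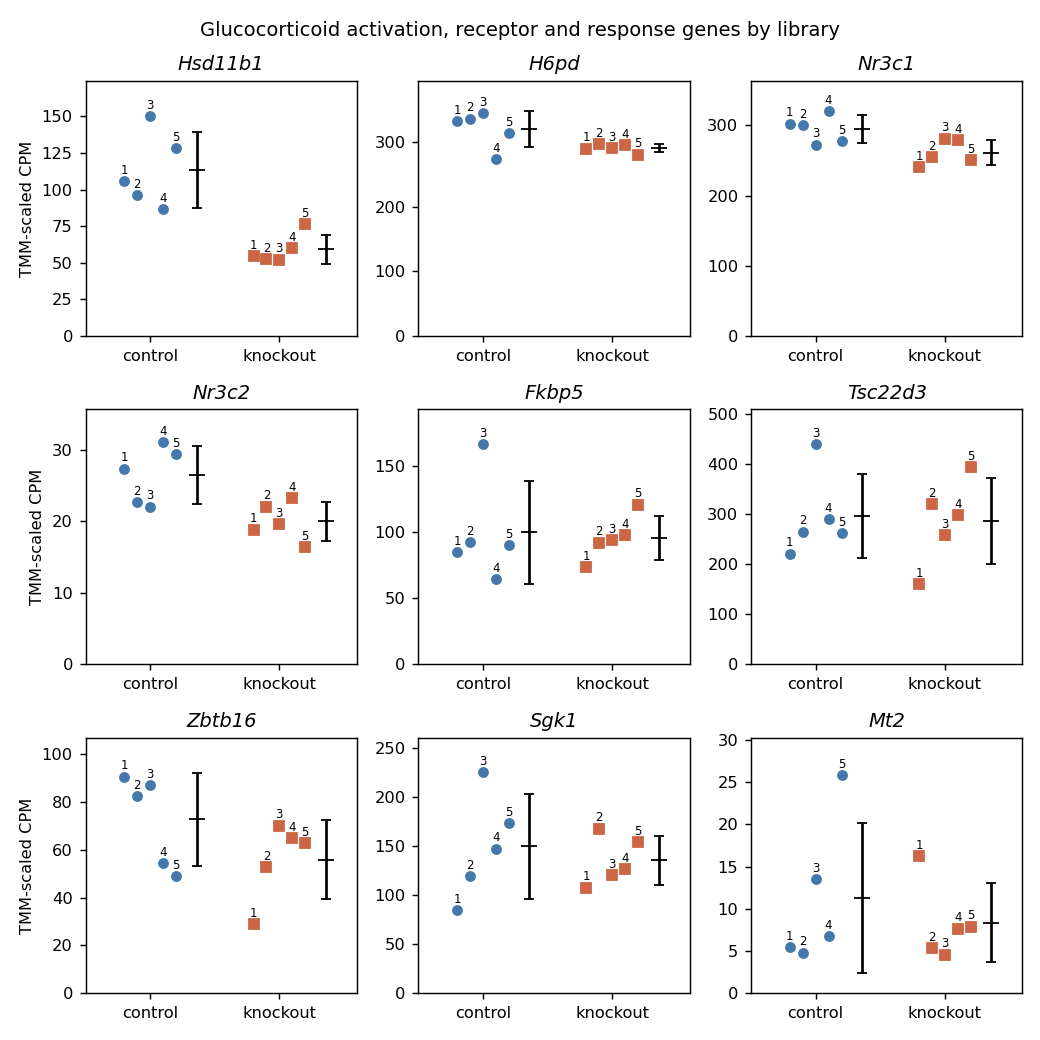
Level of each of the 9 genes in every library, in TMM-scaled CPM from 0 (circles, control 1 to 5; squares, knockout 1 to 5; dash and bar, mean ± SD, n = 5). Hsd11b1 separates the groups, with controls at 86.7 CPM or more and knockouts at 76.2 CPM or less, while in Fkbp5, Tsc22d3 and Sgk1 control 3 stands above the other controls.

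Hsd11b1 (ENSMUSG00000016194, GRCm38 chromosome 1, 193221634 to 193264075, minus strand) stood at 106, 96.0, 150, 86.7 and 128 CPM (control 1 to 5), against 54.7, 52.5, 52.2, 60.1 and 76.2 CPM (knockout 1 to 5). Every knockout library lay below every control library, with knockout 5 the nearest to the controls and control 4 the nearest to the knockouts. The group means were 113 ± 25.8 and 59.1 ± 10.1 CPM, so the knockout held 52.1% of the control level (log2 fold change -0.94, SE 0.15, 95% interval -1.26 to -0.62, edgeR adjusted p = 0.00439). Counts behind them ran from 791 to 2447 in a library. Leaving out any 1 of the 10 libraries kept the call for Hsd11b1 (adjusted p between 0.00388 and 0.0162). Once the intronic-type score entered as a covariate its log2 fold change was -1.41 (adjusted p = 0.0039). Adipocytes and their progenitors both make this enzyme. Of the 10 adipocyte markers, 3 fell, with log2 fold changes of -1.51 for Cfd (adjusted p = 0.000154), -0.56 for Retn (adjusted p = 0.0325) and -0.28 for Plin4 (adjusted p = 0.0424). Lep rose, at 0.48 (adjusted p = 0.0245), and Adipoq, Plin1, Lipe, Pnpla2, Cidec and Fabp4 did not pass (adjusted p between 0.0519 and 0.975). Cfd was called in all 10 fits without 1 library, Lep in 5, Retn in 4 and Plin4 in 2. Their part in the Hsd11b1 value was not tested. By comparison 0 of 10 progenitor and fibroblast markers were called by edgeR, DESeq2 or limma-voom (1 at an unadjusted p below 0.05). Their summed level was between 7682 and 8927 CPM over the control libraries and between 7744 and 9282 CPM over the knockout libraries.

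H6pd (ENSMUSG00000028980, chromosome 4, 149979475 to 150009023, minus strand), whose product supplies the NADPH for that reaction, was measured at 332, 336, 345, 274 and 314 CPM (control 1 to 5), against 290, 297, 291, 296 and 281 CPM (knockout 1 to 5). Control 4 was the lowest library of all and 4 of 5 controls lay above every knockout. The log2 fold change was -0.14 (SE 0.067, 95% interval -0.28 to 0.0057, adjusted p = 0.177). The knockouts were the tighter group, with a coefficient of variation of 2.21% against 8.80% in controls and a median of 12.3% over all tested genes in the knockouts. Of the transporters and phosphatases that bring glucose 6-phosphate into that compartment or consume it there, 4 of 5 listed genes were tested and 0 passed by edgeR, DESeq2 or limma-voom (0 at an unadjusted p below 0.05). Slc37a4, the glucose-6-phosphate translocase, stood at 16.7 and 17.1 CPM, and G6pc3, a phosphatase of the same lumen, at 20.9 and 20.7 CPM.

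Among 16 genes of corticosteroid synthesis, inactivation and transport, 9 were tested, 0 were called higher, 2 lower and 7 did not pass, with a median log2 fold change of -0.18. The 2 lower genes, Abcb1b and Abcb1a, encode the P-glycoprotein pumps that export steroids from cells. Abcb1b had 31.0 ± 2.26 CPM in controls and fell by 0.39 on the log2 scale to 23.8 ± 1.64 CPM (SE 0.072, adjusted p = 0.0098), a call that no single left-out library ended. Abcb1a had 32.3 ± 3.02 CPM in controls and fell to 24.5 ± 4.21 CPM (adjusted p = 0.0348). Leaving out any of controls 1 to 4 or knockouts 1, 2 and 5 ended that call (adjusted p up to 0.0786). Endothelial cells carry these pumps. Of 10 endothelial markers 8 were called lower by edgeR (8 called by DESeq2, 10 by limma-voom), against 7.05% of all tested genes. These markers summed to 1092 to 1369 CPM over the control libraries and 900 to 1036 CPM over the knockout libraries. Their part in the Abcb1 values was not tested. Hsd11b2, which inactivates corticosterone, stood near the floor at 0.547 ± 0.149 and 0.772 ± 0.137 CPM (adjusted p = 0.21). The adrenal hydroxylases Cyp11b1 and Cyp21a1 did not exceed 0.0586 and 0.304 CPM in any library, at or near the floor.

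The glucocorticoid receptor gene Nr3c1 (ENSMUSG00000024431) was measured at 303, 300, 273, 320 and 278 CPM (control 1 to 5), against 241, 254, 281, 279 and 251 CPM (knockout 1 to 5). The ranges overlapped, with controls 3 and 5 level with knockouts 3 and 4. The means were 295 ± 19.5 and 261 ± 18.0 CPM (log2 fold change -0.17, SE 0.068, 95% interval -0.32 to -0.028, adjusted p = 0.102). Under the fit with the intronic-type score it was -0.040 (adjusted p = 0.91).

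Nr3c2, the mineralocorticoid receptor, which binds corticosterone as well as aldosterone, was measured at a lower level (ENSMUSG00000031618, chromosome 8, 76899442 to 77245012, plus strand). It stood at 27.4, 22.7, 22.1, 31.1 and 29.4 CPM (control 1 to 5), against 18.8, 22.1, 19.6, 23.3 and 16.4 CPM (knockout 1 to 5), on between 239 and 502 counts. Knockout 4 lay above controls 2 and 3, and the other 4 knockouts lay below the lowest control, knockout 2 by less than the rounding. Nr3c2 fell to 75.5% of the control level, with means of 26.5 ± 4.02 and 20.0 ± 2.73 CPM (log2 fold change -0.40, SE 0.12, 95% interval -0.66 to -0.15, adjusted p = 0.0414). This call was held only without control 3 or knockout 4. It was lost without controls 1, 2, 4 or 5 or knockouts 1, 2, 3 or 5 (adjusted p between 0.0584 and 0.101), and with the intronic-type score (log2 fold change -0.39, adjusted p = 0.483). The antisense gene Gm10649 overlaps 3.82% of its exonic bases.

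Of 14 genes of the receptor chaperone complex, 0 passed by edgeR, with 2 at an unadjusted p below 0.05, 1 called by DESeq2 and 2 by limma-voom (median log2 fold change 0.065). The smallest p belonged to Hspa8, a constitutive heat shock protein gene, at 1298 ± 81.0 and 1560 ± 186 CPM (adjusted p = 0.063). Of 15 coregulators, 0 were higher, 3 lower and 12 did not pass (median -0.10). Med14, a Mediator subunit, fell by 0.30 on the log2 scale (SE 0.072, adjusted p = 0.0225), lost without control 1, control 2, knockout 2 or knockout 5. The corepressor Ncor1 fell by 0.27 (adjusted p = 0.0353), lost without controls 1, 2 or 4 or knockouts 2, 3 or 5. The coactivator Ncoa1 fell by 0.21 (adjusted p = 0.0408), lost without any library other than control 4 or knockout 3.

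The response genes were described by 5 members, none of which passed by edgeR, DESeq2 or limma-voom (0 at an unadjusted p below 0.05). For each of them the group means differed by less than the SD of the control libraries. Under the fit with the intronic-type score the log2 fold changes were -0.52 for Fkbp5, -0.49 for Tsc22d3, -0.21 for Zbtb16, -0.72 for Sgk1 and -1.40 for Mt2, none of them called (adjusted p between 0.371 and 0.888). A log2 fold change of the size estimated for Nr3c2, -0.40, lay inside the 95% interval of each of the 5.

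Fkbp5 (ENSMUSG00000024222, chromosome 17, 28399094 to 28517527, minus strand) encodes the immunophilin FKBP51, which holds the receptor in its low-affinity state and is itself induced by it. It was measured at 84.7, 92.8, 167, 64.7 and 90.1 CPM (control 1 to 5), against 73.7, 92.2, 94.2, 97.8 and 121 CPM (knockout 1 to 5). Control 3 was the highest and control 4 the lowest of all 10 libraries, so the knockouts lay wholly within the control range. The log2 fold change was -0.062 (SE 0.21, 95% interval -0.51 to 0.39, adjusted p = 0.87), and without control 3 it was 0.21 (adjusted p = 0.335). Without knockout 1 it was 0.026 and without control 4 it was -0.18.

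Tsc22d3 (ENSMUSG00000031431, chromosome X, 140539528 to 140600659, minus strand) encodes GILZ, a leucine zipper protein that carries part of the anti-inflammatory action of the hormone. It stood at 221, 265, 440, 290 and 263 CPM (control 1 to 5), against 161, 319, 257, 298 and 393 CPM (knockout 1 to 5). Control 3 and knockout 5 were high and knockout 1 was the lowest library. The log2 fold change was -0.050 (SE 0.22, 95% interval -0.52 to 0.42, adjusted p = 0.899). Leaving out 1 library moved it between -0.19 (without knockout 5) and 0.14 (without control 3), and it was 0.11 without knockout 1.

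Zbtb16 (ENSMUSG00000066687, chromosome 9, 48654297 to 48836222, minus strand) encodes the zinc finger repressor PLZF. It was measured at 90.7, 82.4, 87.3, 54.6 and 49.1 CPM (control 1 to 5), against 28.9, 52.8, 70.2, 64.8 and 63.0 CPM (knockout 1 to 5). Controls 1 to 3 lay above every knockout, and controls 4 and 5 lay within the knockout range. The log2 fold change was -0.38 (SE 0.23, 95% interval -0.87 to 0.11, adjusted p = 0.268), and it ran from -0.49 without control 5 to -0.21 without knockout 1.

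Sgk1 (ENSMUSG00000019970, chromosome 10, 21882184 to 21999903, plus strand) encodes a kinase that both receptors induce. Its values were 84.2, 120, 225, 147 and 173 CPM (control 1 to 5), against 107, 168, 120, 127 and 154 CPM (knockout 1 to 5). All knockouts lay within the control range, of which control 1 was the low end and control 3 the high end. The log2 fold change was -0.15 (SE 0.21, 95% interval -0.61 to 0.31, adjusted p = 0.671), and it ran from -0.30 without control 1 to 0.048 without control 3.

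Mt2 (ENSMUSG00000031762, chromosome 8, 94172664 to 94173568, plus strand) encodes a metallothionein, a small cysteine-rich protein that binds zinc and that both glucocorticoids and metals induce. It stood at 5.48, 4.77, 13.5, 6.76 and 25.8 CPM (control 1 to 5), against 16.3, 5.35, 4.55, 7.63 and 7.87 CPM (knockout 1 to 5). Control 5, knockout 1 and control 3 were high and the other 7 libraries lay between 4.55 and 7.87 CPM. The log2 fold change was -0.43 (SE 0.46, 95% interval -1.43 to 0.57, adjusted p = 0.553). Without control 5 it was 0.14 and without knockout 1 it was -0.83, so its sign and size rest on single libraries. The antisense gene Gm45774 covers 73.5% of the exonic bases of Mt2 and held between 0.0685 and 0.861 CPM. Whether the counting used strand is not stated in the labels, so reads of the shared bases cannot be assigned here.

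**Figure D2:**
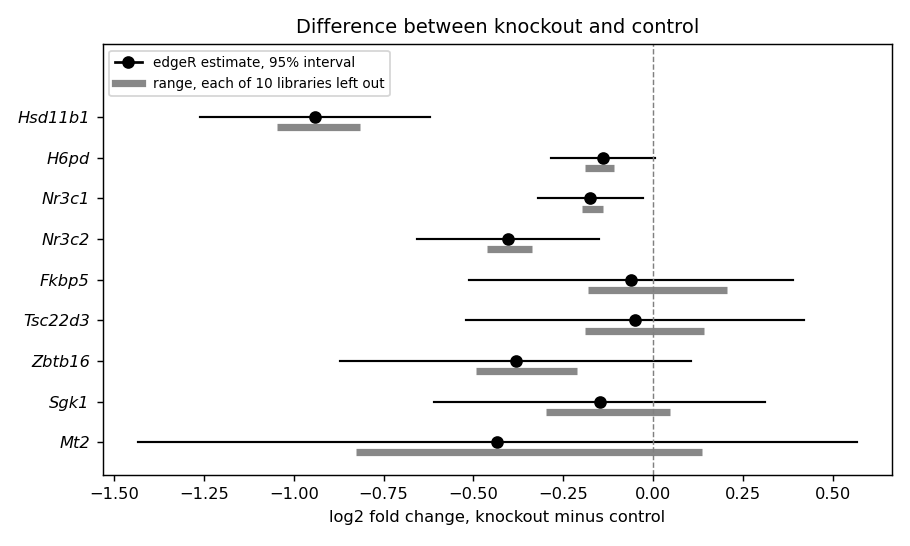
Log2 fold change of knockout minus control for each gene (point) with its 95% interval (thin line, edgeR) and the range of estimates when each of the 10 libraries is left out in turn (grey bar). The interval of Hsd11b1 runs from -1.26 to -0.62, and the grey bars of Fkbp5, Tsc22d3, Sgk1 and Mt2 cross 0.

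Promoter windows were searched for motif letters because the response genes are known targets of the receptor and Mt2 of the metal factor MTF1. RefSeq promoter windows on GRCm38.p6 were read for 7 of the 9 genes, all but Nr3c1 and Zbtb16 (14 windows, since Tsc22d3 and Sgk1 have several starts), and the 250 bases before each start were read on both strands. The full palindromic glucocorticoid element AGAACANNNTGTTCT stood in 1 of these windows, before the fifth of the 6 Sgk1 starts, and in 3 of all 32851 windows (0.00913%). Its core TGTTCT, which overlaps the full element, stood in 16.1% of all windows, and among the members in single windows of H6pd and Tsc22d3 and in 3 of Sgk1. The metal element TGCACNC or TGCGCNC stood in 21.4% of all windows and in 3 of the 14 member windows, 3 times before Mt2 and once each before Hsd11b1 and Nr3c2. All 250 bases of the Hsd11b1 window lie in annotated exons, as do 42 of the Nr3c2 window and 137 of the Tsc22d3 window with a core. Letters bound by TCF factors, CTTTGAT or CTTTGAA, stood in 7.48% of all windows, and among the members in 2 Sgk1 windows. The Sgk1 window chr10:21993640-21993889 (plus strand) is shown for its complete element, with the element and its single cores in capitals. The windows of Mt2 (chr8:94172368-94172617, plus strand) and of its neighbour Mt1 (chr8:94178839-94179081, plus strand) are shown because the pair moved together, with the metal elements in capitals. The Mt1 window ends where its annotated first exon begins, so its last 7 bases are left out.
Sgk1: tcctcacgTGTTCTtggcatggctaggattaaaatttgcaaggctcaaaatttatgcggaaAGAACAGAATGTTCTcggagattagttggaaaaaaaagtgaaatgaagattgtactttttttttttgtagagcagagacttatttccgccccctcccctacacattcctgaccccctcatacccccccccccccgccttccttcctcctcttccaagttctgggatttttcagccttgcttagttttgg
Mt2: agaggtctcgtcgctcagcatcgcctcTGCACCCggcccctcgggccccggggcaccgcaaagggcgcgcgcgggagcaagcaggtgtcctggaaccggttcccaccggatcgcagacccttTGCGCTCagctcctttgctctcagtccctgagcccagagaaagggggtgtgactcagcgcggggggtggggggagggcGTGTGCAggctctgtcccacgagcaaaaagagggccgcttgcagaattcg
Mt1: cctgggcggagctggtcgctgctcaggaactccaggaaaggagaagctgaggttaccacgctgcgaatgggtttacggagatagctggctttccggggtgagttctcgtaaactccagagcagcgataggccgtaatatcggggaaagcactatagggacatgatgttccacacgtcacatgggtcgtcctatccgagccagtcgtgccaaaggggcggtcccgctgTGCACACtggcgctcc
The complete Sgk1 element begins 189 bases before that start. The Mt2 elements begin 223, 128 and 50 bases before its RefSeq start, and the Mt1 element 23 bases before its own. That RefSeq start of Mt2 lies upstream of the gene start given above. These are matches of letters in a window and are no measure of binding.

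Levels per kilobase of exon allow a rough comparison of genes. The length used is that of all annotated exons of a gene merged, which can exceed the length of the transcripts made. Most exonic bases of Mt2 are shared with the antisense gene Gm45774, so its place is uncertain. The control levels ran in the order Tsc22d3, H6pd, Nr3c1, Sgk1, Hsd11b1, Mt2, Zbtb16, Fkbp5 and Nr3c2. Tsc22d3 stood at 68.1 ± 19.4 CPM per kilobase and H6pd at 61.2 ± 5.38, and their ranges overlapped. Nr3c1 followed at 38.4 ± 2.54, below all H6pd values. Then came Sgk1 at 30.6 ± 10.9, Hsd11b1 at 26.7 ± 6.07, Mt2 at 19.2 ± 15.1, Zbtb16 at 13.8 ± 3.68 and Fkbp5 at 10.5 ± 4.13, and from Nr3c1 to Fkbp5 the ranges of neighbours overlapped. Nr3c2 was lowest at 4.10 ± 0.621, below all Fkbp5 values. In the knockouts Hsd11b1 stood at 13.9 ± 2.36 CPM per kilobase, level with Mt2 at 14.2 ± 7.92.

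**Figure D3:**
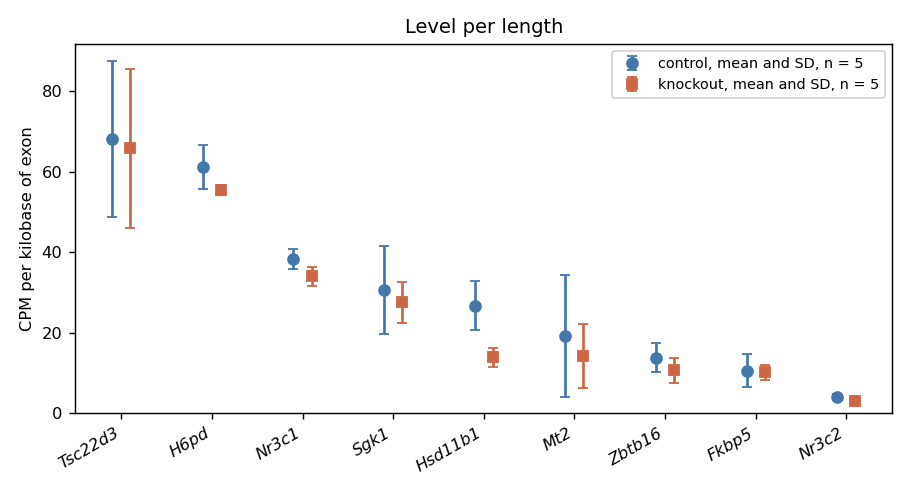
Level of the 9 genes in CPM per kilobase of exon (all annotated exons of a gene merged), in the order of the control means. Symbols give mean ± SD over 5 control libraries (circles) and 5 knockout libraries (squares). Tsc22d3 and H6pd are highest, Nr3c2 is lowest at 4.10 in controls, and Hsd11b1 stands at 26.7 in controls and 13.9 in knockouts.

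The spread between libraries of a group differed among the genes. The coefficient of variation among controls was 6.63% for Nr3c1 and 8.80% for H6pd, against a median of 11.3% over all tested genes. It was 15.2% for Nr3c2 and 22.8% for Hsd11b1. All 5 response genes varied more, at 26.7% for Zbtb16, 28.5% for Tsc22d3, 35.7% for Sgk1, 39.1% for Fkbp5 and 78.6% for Mt2. In the knockouts these 5 lay between 17.6% for Fkbp5 and 55.9% for Mt2, against the median of 12.3%. Hsd11b1 stood at 17.0% there, close to Fkbp5 and to Sgk1 at 18.4%.

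Whether the 9 genes moved together from library to library was asked with the group means removed, so that the difference between the groups plays no part. The largest positive values of r were those of Hsd11b1 with Fkbp5, Tsc22d3 with Sgk1 and Fkbp5 with Tsc22d3. H6pd with Fkbp5 came next (0.607, and -0.386 without controls 3 and 4). However, 0 of 36 pairs passed after adjustment over the pairs, by Pearson's r or by Spearman's rho, and 5 had an unadjusted exact permutation p below 0.05 by r. Of the 36 values of r, 18 were positive. For Hsd11b1 and Fkbp5 r was 0.832 over 10 libraries (exact permutation p = 0.00646, adjusted 0.116) and rho was 0.588 (exact p = 0.1, adjusted 0.519). Without control 3 and knockout 5, the libraries farthest from the median of Hsd11b1, r was 0.51, so the size of this relation rests on them. Without controls 3 and 4, the farthest on Fkbp5, r was 0.615. It was 0.867 in the controls alone and 0.769 in the knockouts alone.

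For Tsc22d3 and Sgk1 r was 0.762 (exact permutation p = 0.00479, adjusted 0.116) and rho 0.77 (exact p = 0.0144, adjusted 0.517), with r = 0.701 without knockout 1 and control 3. It was 0.86 in the controls alone and 0.836 in the knockouts alone. Fkbp5 and Tsc22d3 gave r = 0.751 (exact permutation p = 0.0151, adjusted 0.182) and rho = 0.721 (exact p = 0.0336, adjusted 0.519), with r = 0.939 without controls 3 and 4, the farthest on Fkbp5, and r = 0.544 without knockout 1 and control 3, the farthest on Tsc22d3. The remaining pairs with an unadjusted p below 0.05 were negative. Nr3c1 and Mt2 gave r = -0.715 (exact permutation p = 0.0353, adjusted 0.255, rho = -0.661 with exact p = 0.0557, adjusted 0.519), and r = -0.654 without control 4 and knockout 1. Zbtb16 and Mt2 gave r = -0.658 (exact permutation p = 0.0342, adjusted 0.255, rho = -0.503 with exact p = 0.159, adjusted 0.536), a relation that rested on control 5 and knockout 1, since r was 0.082 without them.

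**Figure D4:**
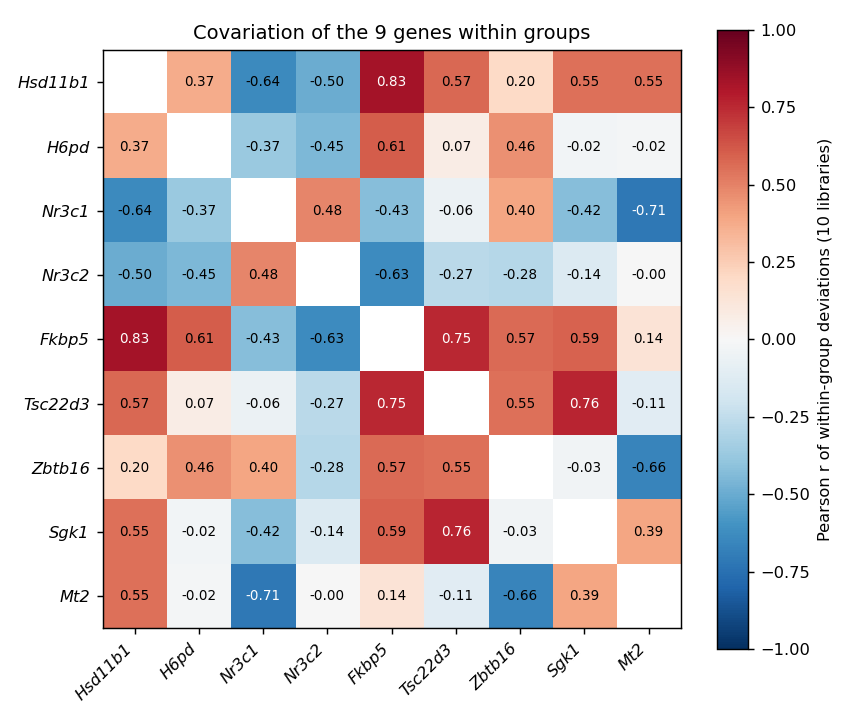
Pearson r between the within-group deviations of each pair of the 9 genes over 10 libraries (log2 CPM minus the group mean). The largest value is 0.83 for Hsd11b1 and Fkbp5, Tsc22d3 is positive with Fkbp5 and Sgk1, and Nr3c1 is negative with Hsd11b1 and Mt2.

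**Figure D5:**
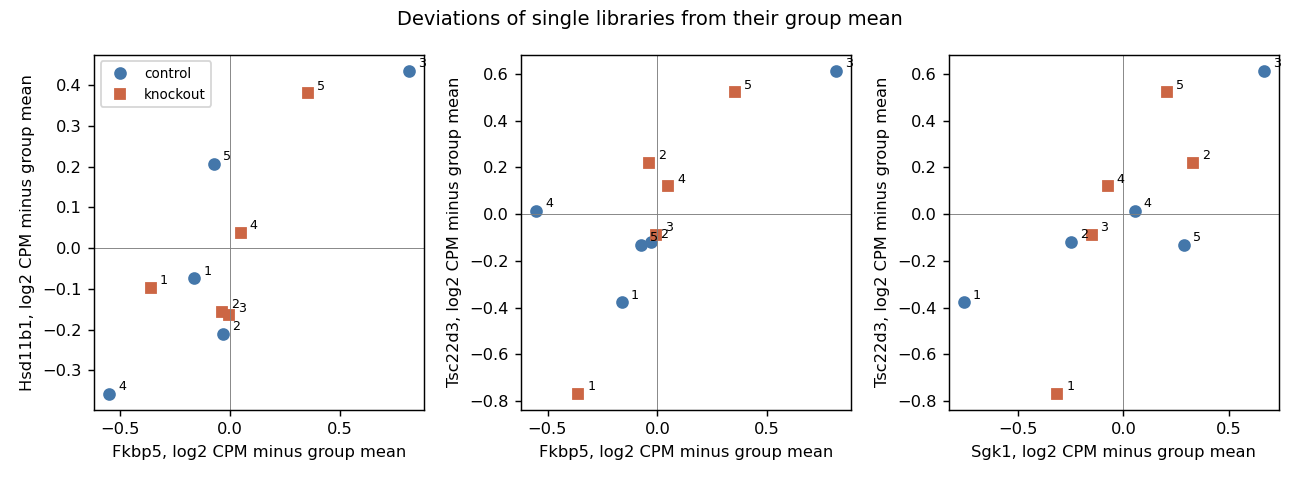
Deviation of each library from its group mean, in log2 CPM, for Hsd11b1 against Fkbp5, Tsc22d3 against Fkbp5 and Tsc22d3 against Sgk1 (circles, controls; squares, knockouts; numbers, libraries). Control 3 and knockout 5 lie at the upper right of each panel.

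The intronic-type score was compared with the same deviations of the 9 genes. With Hsd11b1 its r was -0.777 (exact permutation p = 0.0208, adjusted over 9 genes 0.187) and its rho -0.855 (exact p = 0.00965, adjusted 0.0869), and without control 5 and knockout 5 r was -0.786. For Sgk1 r was -0.64 (exact permutation p = 0.131, adjusted 0.295) and rho -0.661 (exact p = 0.0773, adjusted 0.174). For Nr3c1 r was 0.628 (exact permutation p = 0.0634, adjusted 0.19) and rho 0.624 (exact p = 0.0738, adjusted 0.174). For Mt2 r was -0.699 (exact permutation p = 0.0501, adjusted 0.19) and rho -0.745 (exact p = 0.0432, adjusted 0.174). Without control 5 and knockout 5 r was -0.689 for Sgk1, 0.568 for Nr3c1 and -0.465 for Mt2. For Mt2 the value came from the controls, with r = -0.977 in the controls alone and 0.132 in the knockouts alone. None of the 9 relations passed after adjustment. Its part in the relations among the genes was not tested.

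As a description with no test, the genes closest to each member over the 10 libraries were found by the r of the same deviations. Dusp1, a phosphatase gene that glucocorticoids induce, followed Tsc22d3 at r = 0.96, next to Depp1, a FOXO target, at 0.964. Dusp1 stood at 28.9, 39.2, 58.9, 38.6 and 41.0 CPM (control 1 to 5), against 17.4, 34.5, 29.1, 27.0 and 44.6 CPM (knockout 1 to 5), so control 3 was its highest and knockout 1 its lowest library, as for Tsc22d3. Nrep, Mt1 and Rpl23a followed Mt2 (0.987, 0.971 and 0.97), and Mt1 had 237 CPM in control 5 and between 49.7 and 119 CPM in the other libraries. Rnd3, Lep and Tomm20 followed Sgk1 (0.96, 0.949 and 0.936), and N4bp2l1, Tapt1 and Grb10 followed Zbtb16 (0.968, 0.961 and 0.958). Hsd11b1 was nearest to Npepl1, Ube2g2 and Gng2 (0.962, 0.961 and 0.949), and Fkbp5 to Top1mt, Osbpl1a and Ecd (0.976, 0.964 and 0.954). The receptor gene Nr3c1 was nearest to Mef2a, Mctp1 and Nkd2 (0.955, 0.953 and 0.949), Nr3c2 to Zfp524 (0.939) and H6pd to Nxpe4 (0.922). All are among the 3 highest values for their member in a search of the tested genes with a mean log2 CPM of at least 1.

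The wider set of glucocorticoid-induced genes held 1 called gene. Of 30 listed genes 28 were tested, 0 were called higher, 1 lower and 27 did not pass, with 3 at an unadjusted p below 0.05 and 1 and 2 calls by DESeq2 and limma-voom (median log2 fold change -0.091). The lower gene was Hif3a, a hypoxia-inducible factor subunit, at 1.38 ± 0.415 and 0.573 ± 0.155 CPM (log2 fold change -1.26, SE 0.28, adjusted p = 0.0168). Its knockout level lay near the floor, so the size of that fold change is uncertain. Pdk4, a brake on pyruvate oxidation, stood at 223 ± 58.3 and 160 ± 43.9 CPM (adjusted p = 0.138), and the Kruppel-like factor gene Klf15 at 28.3 ± 10.1 and 18.6 ± 5.36 CPM (adjusted p = 0.157). Within groups, 23 of these 28 genes had a positive r with Tsc22d3 (median 0.542), 24 with Sgk1 (0.45), 22 with Fkbp5 (0.437) and 24 with Hsd11b1 (0.249). The number was 19 with H6pd (0.058), 16 with Zbtb16 (0.213), 15 with Mt2 (0.168), 10 with Nr3c2 (-0.198) and 9 with Nr3c1 (-0.167). The medians over all tested genes lay between -0.037 for Nr3c1 and 0.020 for Mt2. With Tsc22d3, Sgk1, Fkbp5 and Hsd11b1 in that order the medians were 0.386, 0.108, 0.337 and 0.062 for 15 clock genes. They were 0.271, 0.052, 0.260 and 0.443 for 9 metal and zinc response genes, and -0.134, -0.140, -0.029 and -0.048 for 12 immediate-early genes. With Zbtb16 the clock genes had a median of 0.515. Positive medians are thus not particular to the induced genes. The lists are not separate, since the induced genes share Per1 with the clock genes, Mt1 with the metal genes and Dusp1 with the immediate-early genes. These r values share libraries and are given without a test.

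Of 12 inflammatory genes that glucocorticoids repress, 10 were tested, 1 was higher and 0 lower, with 3 at an unadjusted p below 0.05 (median log2 fold change 0.23). Ccl5, a chemokine of T cells and macrophages, had 2.53 ± 0.14 CPM in controls and rose to 4.80 ± 1.83 CPM (adjusted p = 0.0295). Leaving out any of controls 1 to 4 or knockouts 3 and 5 ended that call (adjusted p up to 0.0731). T cell markers were higher in 6 of 10 by edgeR (6 called by DESeq2, 4 by limma-voom), against 5.84% of all tested genes. The T cell sums were 44.8 to 48.8 CPM over the control libraries and 47.8 to 173 CPM over the knockout libraries. B cell markers were higher in 5 of 10 by edgeR (3 called by DESeq2, 1 by limma-voom). Their sums were 686 to 993 CPM over the control libraries and 869 to 1735 CPM over the knockout libraries. The part of either marker set in the Ccl5 value was not tested. Tnf stood at 2.56 ± 0.438 and 4.03 ± 1.157 CPM (adjusted p = 0.0587). Of 9 genes linked to the mineralocorticoid receptor 5 were tested and 2 were higher. Nedd4l, a ubiquitin ligase that Sgk1 phosphorylates, had 65.7 ± 5.94 CPM in controls and rose by 0.45 on the log2 scale to 90.0 ± 12.0 CPM (SE 0.094, adjusted p = 0.0144), a call that no single left-out library ended. Atp1b1, a sodium pump subunit, rose to 3.90 CPM from 2.45 CPM (adjusted p = 0.0486) and was called only without knockout 2 or knockout 3 among those fits.

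Of 10 genes of the metal and zinc response, 9 were tested and 1 was higher, Hmox1, the heme oxygenase gene (log2 fold change 0.33, SE 0.094, adjusted p = 0.0396, called only without control 5 or knockout 1 among the fits that left out 1 library). Mt1 stood at 105 ± 79.1 and 81.4 ± 27.4 CPM (adjusted p = 0.559) and the zinc exporter gene Slc30a1 at 34.1 and 32.3 CPM (adjusted p = 0.45). Clock and immediate-early genes were counted as well. Of 15 clock genes 0 passed by edgeR, with 4 at an unadjusted p below 0.05, 2 called by DESeq2 and 1 by limma-voom (12 with a negative log2 fold change, median -0.22). Over all 15927 tested genes 4930 had an unadjusted p below 0.05. Of 12 immediate-early genes 0 passed by edgeR, DESeq2 or limma-voom, with 0 at an unadjusted p below 0.05 (median 0.0045). Per1, which belongs to both the clock and the glucocorticoid set, stood at 34.6 ± 8.09 and 26.2 ± 9.57 CPM (adjusted p = 0.29), with knockout 1 lowest at 11.3 CPM. Of the genes from these lists that edgeR called, none was called once the intronic-type score entered the fit (adjusted p between 0.1 for Abcb1b and 0.922 for Hmox1).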

How the data were processed

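Total RNA was depleted of ribosomal RNA and made into strand-marking libraries, per the labels' protocols. The authors deposited whole-number counts per gene, not normalized, in a single table of 10 libraries. STAR 2.5.2b, featureCounts 1.5.1, DESeq2 1.16.0 and GRCm38 are named per the submitters' processing notes, with no role or order. The annotation, strand setting and treatment of multiply mapped reads are not stated in the labels.

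Of 52636 identifiers, 52489 matched a symbol in GENCODE release M21 (GRCm38). Libraries were grouped by the genotype label, and replicate numbers follow record order and pair nothing. Genes were filtered with filterByExpr (15927 left), scaled by TMM and compared with edgeR 4.0.16 (quasi-likelihood, 2-sided, no covariate, R 4.3.3), with Benjamini-Hochberg adjustment over all tested genes and a threshold of 0.05. Alternatives used RLE size factors, no filter, DESeq2 1.42.0, limma-voom 3.58.1 with quality weights, the intronic-type score (mean log2 CPM of 786 tested genes annotated TEC or sense_intronic) and leaving out each library. Within-group relations used log2 CPM (prior count 2) minus the group mean, with exact permutation over all 14400 orders within groups. Libraries of a group differed beyond sampling noise (chi-square per degree of freedom 6.57 to 26.2), so each counts as 1 replicate. Both procedures were tested on simulated data. The members and lists were chosen with earlier results of these data known. Named genes are the 9 members, Tcf7l2, up to 4 genes of smallest p in each list and the 3 genes closest to each member (mean log2 CPM not under 1, Gm and Rik names left out). Not all of the latter are printed. Cyp11b1, Cyp21a1, Per1, Gm45774, Gm10649 and the adipocyte markers other than Lep, named in the report, are outside this rule and were chosen after their values were seen. RefSeq promoter windows (GRCm38.p6) came from a reference table. The result of 1 gene among the near relatives is not reported here.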

Additional observations from a re-analysis of the deposited data

Results flagged for a closer look

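In 108 groups of 5 libraries (the named genes other than those found by likeness, each in both groups), 6 held a library whose gap to its nearest neighbour exceeded 0.71 of the range of its group. About 1 in 20 such groups exceeds it by chance. Fkbp5 in control 3 stood at 167 CPM against 64.7 to 92.8 CPM in the other controls. Mt2 in knockout 1 stood at 16.3 CPM against 4.55 to 7.87 CPM in the other knockouts. Abcb1a in control 3 was 37.7 CPM against 30.7 to 31.2 CPM. Knockout 1 also held the highest Slc37a1, a glucose-6-phosphate antiporter gene, at 4.42 CPM against 1.09 to 1.91 CPM, and the highest Junb, an immediate-early gene, at 48.5 CPM against 19.9 to 27.6 CPM. Egr2 in knockout 3 was 10.9 CPM against 8.33 to 8.96 CPM.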

How the results depend on the processing

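Hsd11b1 was called lower under each of the 15 alternatives (5 other settings and 10 fits without 1 library), and the signs of the log2 fold changes of H6pd, Nr3c1 and Nr3c2 were negative in all of them. The number of genes called was 2053, and it was 3605 with limma-voom, 49 with the intronic-type score and between 537 and 3094 without 1 library. Members called were 2, and 1 with the intronic-type score or, in 8 of 10 fits, without 1 library (range 1 to 2). With the intronic-type score the calls were 0 in the lists of steroid synthesis and transport, coregulators, induced genes, inflammatory genes, mineralocorticoid-linked genes, metal response and near relatives. The covariate differs between the groups, so it also takes up part of the genotype difference. With no filter the calls were 1 for coregulators, 3 for induced genes, 3 for inflammatory genes, 2 for the clock and 1 for immediate-early genes. DESeq2 gave 1 for chaperones, 2 for inflammatory genes and 2 for the clock, and limma-voom gave 2 for chaperones, 2 for induced genes, 3 for inflammatory genes, 1 for mineralocorticoid-linked genes, 2 for metal response and 1 for the clock. The cause of these moves was not tested. Without 1 library the calls ranged from 1 to 2 for steroid synthesis and transport, induced genes and mineralocorticoid-linked genes, 0 to 1 for chaperones, 0 to 3 for coregulators, 0 to 2 for inflammatory genes, metal response and the clock, and 2 to 3 for near relatives. The count of pairs past the threshold was 0 of 36 under each alternative run. No paired analysis was possible because the labels give no replicate numbers shared by the groups. Depth limits the steroid synthesis list, of which 9 of 16 genes had enough counts to test.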

Other observations

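Of 12 listed near relatives of the 9 genes, 9 were tested, 2 were called higher, 1 lower and 6 did not pass (median log2 fold change 0.042). Tsc22d1 and Tsc22d4, which share the leucine zipper of Tsc22d3, rose. Tsc22d1 had 247 ± 29.1 CPM in controls and 339 ± 45.6 CPM in knockouts (log2 difference 0.46, SE 0.10, edgeR adjusted p = 0.0182), a call lost without control 1 or control 2 (adjusted p up to 0.0568). Tsc22d4 had 32.1 ± 1.67 CPM in controls and 40.2 ± 3.19 CPM in knockouts (log2 difference 0.32, SE 0.067, adjusted p = 0.0144), with no overlap between the groups. Both calls were lost with the intronic-type score (adjusted p = 0.483 for Tsc22d1 and 0.356 for Tsc22d4).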
